A study of Mus musculus with 4 samples.

Results

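N6-methyladenosine (m6A) was mapped by meRIP-seq in c-Kit+ cells, and the peaks on 10 genes of mRNA deadenylation are described here. The genes, 10 of 21851 protein-coding genes, were chosen by name with earlier results of these data known. They do not cover their families, since Btg3, Btg4 and Zfp36l3, which had no peak, are not among them. They comprise the ZFP36 adaptors Zfp36, Zfp36l1 and Zfp36l2, the BTG/TOB adaptors Btg1, Btg2, Tob1 and Tob2, and the CCR4-NOT subunits Cnot1, Cnot6 and Cnot6l. A peak was given to a gene when its summit, the base of highest signal, lay in an exon of that gene. By this rule the 10 genes held 11 of the 12710 exonic peaks of replicate 1 and 13 of the 12204 of replicate 2.

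In meRIP-seq, RNA is fragmented and the fragments that carry m6A are captured with an antibody and sequenced. The cells were foetal liver cells of the C57BL/6 background, enriched for Kit with magnetic beads, and the study's methods give them as Ythdf2 CTL cells, the control genotype of a Ythdf2 conditional knockout. There was 1 group, with 2 immunoprecipitation (IP) replicates and no treated or mutant group, so no test between conditions was possible. The 2 input samples were not analysed here.

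Shortening of the poly(A) tail is the usual opening step of mRNA decay, and the CCR4-NOT complex performs most of it. CNOT1 is the scaffold of the complex, and CNOT6 and CNOT6L are alternative deadenylase subunits. ZFP36 proteins (TTP and its relatives) bind AU-rich elements in 3′ UTRs, including those of cytokine mRNAs, and bring CCR4-NOT to them. BTG and TOB proteins, which restrain cell proliferation, bind the same complex. The m6A reader YTHDF2 also recruits CCR4-NOT to its target mRNAs.

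All 7 adaptor genes carried a peak in both replicates, and none of the 3 CCR4-NOT subunits chosen here did, although 5 of 9 other CCR4-NOT genes described at the end did. Cnot1 had a peak in replicate 2 alone, and Cnot6 and Cnot6l had none in either. Over all protein-coding genes, 30.9% held peaks in the 2 replicates alike, and 37.1% held a peak in 1 replicate or more. With 1 group and so few genes, the difference between these 7 and these 3 genes is a count with no test, and it does not extend to the complex or to both families as a whole.

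Nucleotides near the summit are shown because m6A is deposited in a short context, DRACH. D stands for any base but C, R for a purine and H for any base but G. GGAC is the core most often seen. Each sequence is the sense strand of the GRCm38 reference, 25 nt long and written 5′ to 3′ with the motif in capitals, and the A of the motif is at position 13. For each adaptor the motif is the GGAC nearest to the summit of the strongest peak (the one with the highest −log10 q, where q is the p-value of the peak caller adjusted for multiple testing). DRACH was taken where no GGAC lay within 100 nt. Where GGAC is shown, a DRACH can lie nearer to the summit. In Zfp36 in replicate 1 the GGAC lies 65 nt before the summit, while the A of a DRACH is the summit base itself. In replicate 2 the DRACH of Zfp36l2 lies 41 nt before the summit and that of Btg2 27 nt after it. The A of the site lies at chr7:28378211 in Zfp36 in replicate 1 and at chr7:28378431 in replicate 2, at chr12:80109704 and chr12:80112925 in Zfp36l1, at chr17:84185805 and chr17:84185428 in Zfp36l2, and at chr1:134078923 and chr1:134077430 in Btg2. In the other adaptors the same site was nearest in both replicates, at chr10:96618391 in Btg1, chr11:94213960 in Tob1 and chr15:81858197 in Tob2. A motif near a summit is a match of letters and not a measured site, since meRIP-seq does not resolve the methylated base.
Zfp36, coding, replicate 1: gagctctgtcGGACctactcagaaa
Zfp36, coding, replicate 2: atccctcggaGGACtttggaacata
Zfp36l1, coding, replicate 1: attctctctcGGACcacgagggcta
Zfp36l1, 5′ UTR, replicate 2: ccccgcaccgGGACcttcacgacac
Zfp36l2, coding, replicate 1: cccccagcctGGACcctggccgtcg
Zfp36l2, 3′ UTR, replicate 2: gatgagtttgAAACTctagttttag
Btg1, coding, both replicates: ccagcggattGGACtgagcagtcag
Btg2, coding, replicate 1: gggcgctccaGGACgcactgaccga
Btg2, coding, replicate 2: tcacctgcaaGAACCagatgatgct
Tob1, coding, both replicates: cggcgaaaagGGACcagtgaaggtg
Tob2, 5′ UTR, both replicates: cagaaggacaGGACctgccagacga

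Each of the 7 adaptor transcripts has 2 exons, and the last exon holds most of the mRNA. This matters for the count, because a peak in both replicates was less frequent among genes of 2 exons (442 of 2126, 20.8%) than among genes of at least 12 exons (2355 of 6137, 38.4%), the class of the 3 CCR4-NOT subunits. Among 2-exon genes with an exon of at least 1710 nt, the shortest value of the longest exon among the 7 adaptors, the share was 23.2%. The adaptors therefore lay in a gene class with a lower background and the CCR4-NOT subunits in a class with a higher one. Expression was not measured in these files, so neither share is corrected for it.

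**Figure D1:**
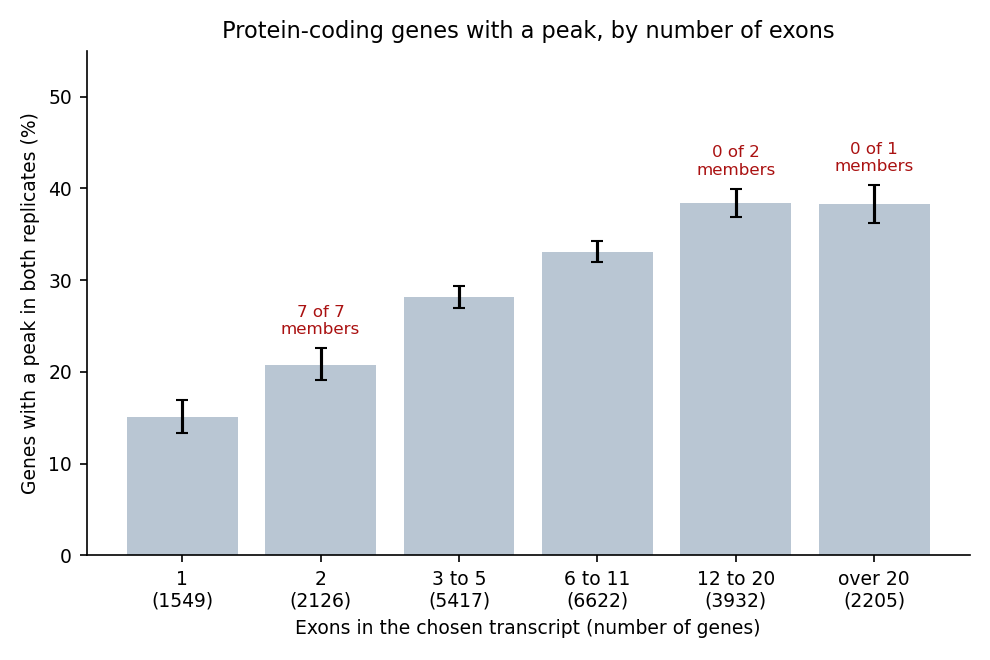
Share of protein-coding genes with a peak in both replicates (y axis, percent) by the number of exons of the chosen transcript (x axis, number of genes in brackets), with exact 95% binomial intervals for counting error as bars and the members' own counts above their classes. The share was 20.8% for 2-exon genes, the class of all 7 adaptors, and 38.4% for genes of 12 to 20 exons, the class of Cnot6 and Cnot6l.

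Zfp36 encodes tristetraprolin, which destabilises Tnf and other cytokine mRNAs. The gene (chr7:28376784-28380253, minus strand) held a wide peak over its coding exon in both replicates. Its fold enrichment, the ratio of IP signal to local background at the summit, was 5.02 in replicate 1 (−log10 q 29.0) and 10.1 in replicate 2 (−log10 q 40.2). IP reads at the summit were 83 (exact 95% Poisson interval 66.1 to 103) and 67 (51.9 to 85.1), over backgrounds of 18 and 5.4 control reads. The IP counts overlapped within counting error while the background was lower in replicate 2, and the summits lay 298 bp apart, at 371 and 73 nt past the start of the coding sequence. A weaker peak lay 112 nt past the stop codon in replicate 1 alone (2.65-fold, −log10 q 4.63, 35 reads).

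Zfp36l1 and Zfp36l2 are the paralogues of Zfp36, and both are known in blood cell development. In Zfp36l1 (chr12:80107754-80113013, minus strand) a wide peak covered the stop codon in both replicates and ended 43 and 100 nt past its first base, with summits 104 and 97 nt before it and 7 bp apart. It was 2.40-fold in replicate 1 and 2.49-fold in replicate 2, on 98 and 88 IP reads, and both values were below the median exonic peak. The strongest peak of replicate 2 was another one, in the 5′ UTR of exon 1 (6.24-fold, 40 reads), with no counterpart in replicate 1. That summit, and a 3′ UTR summit 780 nt past the stop codon in replicate 1 (2.21-fold, 59 reads), also lay in exons of the opposite-strand lincRNA Gm26669, and the peak lists carry no strand.

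Zfp36l2 (chr17:84183931-84187947, minus strand) rested on the most IP reads of the 10 genes. Its strongest peak had 172 reads in replicate 1 (147 to 200) and 165 in replicate 2 (141 to 192). Fold enrichment was 6.44 in replicate 1 (−log10 q 74.1, above 99.8% of exonic peaks) and 2.68 in replicate 2 (−log10 q 23.1). The summits lay 414 bp apart, 46 nt before the stop codon over a background of 29.6 control reads and 368 nt past it over 58. The replicate 1 summit also lay in an exon of AC132455.1, annotated antisense to Zfp36l2. Outside this region no peak was shared: replicate 1 had a peak 1302 nt into the 3′ UTR (1.77-fold), and replicate 2 had coding peaks 457 nt past the start codon (3.22-fold) and 56 nt past it (1.78-fold). Of the last of these, only 33 of 508 bp lay in the exon and the rest in the intron.

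Btg1, an antiproliferative gene that is often mutated in B-cell lymphoma, gave the closest match between replicates. The gene (chr10:96617006-96622809, plus strand) held 1 peak in each replicate, and both summits fell on the same base, 268 nt past the start of the coding sequence. IP reads were 114 (94.0 to 137) and 113 (93.1 to 136). Fold enrichment was nevertheless 5.69 in replicate 1 and 9.87 in replicate 2, since the background amounted to 22 and 10 control reads. The −log10 q of 44.6 and 64.8 exceeded that of 94.2% and 99.4% of exonic peaks. The coding sequence around this summit, 50 nt to either side (chr10:96618346-96618446, plus strand), has 2 GGAC, shown in capitals because both lie on the 5′ side of the common summit.
Btg1 summit window: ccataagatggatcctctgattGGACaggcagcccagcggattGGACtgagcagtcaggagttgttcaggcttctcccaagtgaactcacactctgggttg

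Btg2, a p53 target and the paralogue of Btg1, carried a peak across the start of its exon 2 (gene at chr1:134075170-134079120, minus strand). Fold enrichment was 5.68 in replicate 1 (104 IP reads) and 3.58 in replicate 2 (78 reads), each over 20 control reads, and the reads overlapped within their intervals (85.0 to 126 and 61.7 to 97.3). The replicate 1 summit was the first base of exon 2, 142 nt past the start of the coding sequence, and that of replicate 2 lay 246 bp further on, 86 nt before the stop codon. The GGAC shown for replicate 1 lies in exon 1, 12 nt before the exon junction on the spliced transcript. The base after this GGAC is G, so it does not match DRACH. The nearest DRACH lies 4 nt before the summit. A 3′ UTR peak 259 nt past the stop codon was present in replicate 2 alone (3.24-fold, 63 reads).

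Tob1, whose product bridges CCR4-NOT and the poly(A)-binding protein, was like Btg1 in the precision of its summit. Its peak (gene at chr11:94211454-94215495, plus strand) spanned 836 and 785 bp, all exonic, with summits 1 bp apart at 309 and 310 nt past the start of the coding sequence. Fold enrichment was 8.17 and 6.46, on 100 and 94 IP reads over 13 control reads in each replicate. These values exceeded those of 90.4% and 75.2% of exonic peaks. The window around the replicate 1 summit (chr11:94213899-94213999, plus strand) has 2 GGAC, both on the 3′ side, whereas those of Btg1 are on the 5′ side.
Tob1 summit window: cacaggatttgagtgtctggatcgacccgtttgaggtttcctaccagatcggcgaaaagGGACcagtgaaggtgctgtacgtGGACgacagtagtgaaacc

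Tob2, the paralogue of Tob1, was the only one of the 10 genes with 2 peaks that were each found in both replicates. The gene lies at chr15:81848272-81858796 on the minus strand. A peak in the 5′ UTR of exon 1 was 8.01-fold in replicate 1 (56 IP reads) and 5.60-fold in replicate 2 (46 reads), over 7 control reads in each, with summits 3 bp apart. This summit also lay in an exon of Gm49476, annotated antisense to Tob2. A wider peak over the coding exon had its summit 32 and 38 nt past the stop codon, and was 2.04-fold (92 reads) and 2.60-fold (89 reads). More reads stood at the stop codon than in the 5′ UTR, but the background there was 51 and 32 control reads. Its nearest DRACH overlaps the stop codon itself (A at chr15:81850729), a site added after its values were seen.
Tob2, stop codon, both replicates: gctggccaacTGACCgtcttcccat

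**Figure D2:**
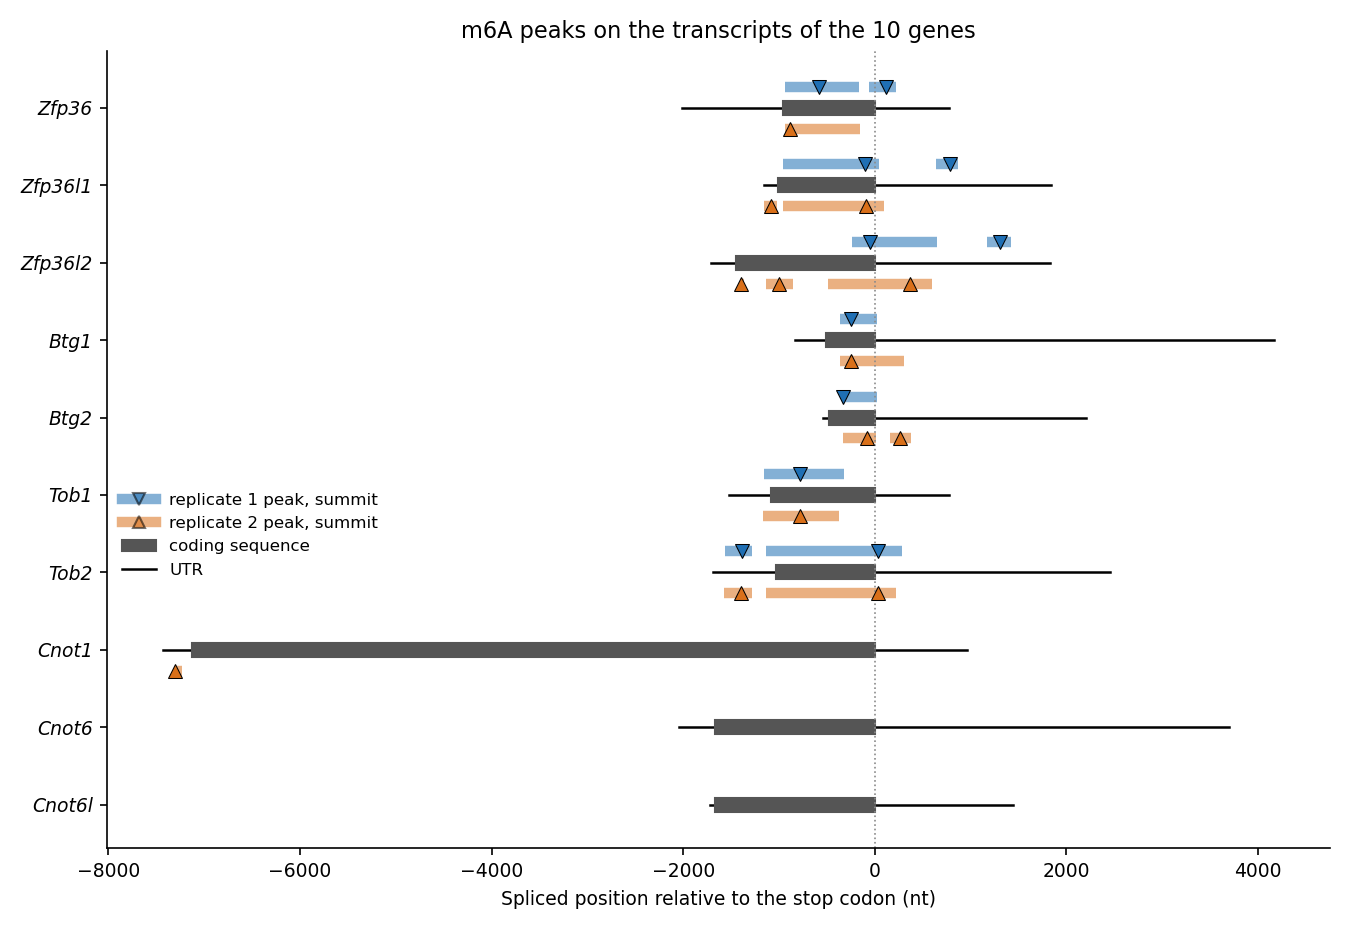
Peaks of replicate 1 (blue, above) and replicate 2 (orange, below) on the spliced transcripts of the 10 genes, with position in nt from the stop codon on the x axis, coding sequence as boxes, UTRs as lines and summits as triangles. The summits of Btg1, Tob1 and both Tob2 peaks coincide within 6 bp, those of Zfp36, Zfp36l2 and Btg2 lie 246 to 414 bp apart, and the 3 CCR4-NOT subunits hold 1 peak between them.

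Cnot1 (chr8:95719451-95807464, minus strand) has 49 exons and 8390 nt of spliced RNA, and its only peak was in replicate 2. The summit was the first base of exon 2, in the 5′ UTR and 173 nt before the start codon, at 2.64-fold (−log10 q 9.11) on 71 IP reads over 25 control reads. Of its 205 bp, 66 were exonic. Stronger peaks 296 and 308 bp upstream of the Cnot1 start (8.01-fold in replicate 1, 11.7-fold in replicate 2) had their summits in exons of the neighbouring gene 4930513N10Rik. The replicate 2 peak reached into exon 1 of Cnot1, so that a rule of any overlap in place of the summit would give Cnot1 a second peak in replicate 2 and still none in replicate 1. Cnot6 (chr11:49671503-49712723) and Cnot6l (chr5:96070333-96164171), both with 12 exons on the minus strand, had no exonic peak. Whether the transcripts lacked m6A or lacked the reads to show it cannot be told apart from peak lists.

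As a set, the members' peaks had more reads than the typical peak but not a consistently higher fold. Their median fold enrichment was 5.02 in replicate 1 and 3.24 in replicate 2, against 4.18 and 4.39 for all exonic peaks, so the order turned between replicates. Median IP reads were 98 and 88 against 68 and 66, and median −log10 q was 29.0 and 17.1 against 16.1 and 15.8. Peaks on these genes were also wider, with medians of 519 and 508 bp against 397 and 413.5 bp. The background beneath them was 22 and 20 control reads against 17 and 13.

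Over the 6748 genes with a peak in both replicates, the strongest peak had a median fold of 4.74 (mean of the replicates). Btg1 stood at 7.78 (above 83.3% of those genes), Zfp36 at 7.57 (82.1%), Tob1 at 7.32 (80.0%) and Tob2 at 6.80 (75.5%). Btg2 at 4.63, Zfp36l2 at 4.56 and Zfp36l1 at 4.32 were just below the median. Apart from Tob2 and Btg2, neighbours in this order differed by less than the 2 replicates of either gene did. By −log10 q the order was another one, with Btg1, Zfp36l2 and Tob1 above 97.6%, 94.5% and 92.8% of genes and Zfp36l1 above 26.4%. For Zfp36l1 the 2 replicates contributed different peaks to this mean. Some of the ranked summits also lay in exons of opposite-strand genes, those of Tob2 in both replicates, Zfp36l1 in replicate 2 and Zfp36l2 in replicate 1. The other shared peak of Tob2, at the stop codon, was 2.04-fold and 2.60-fold.

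**Figure D3:**
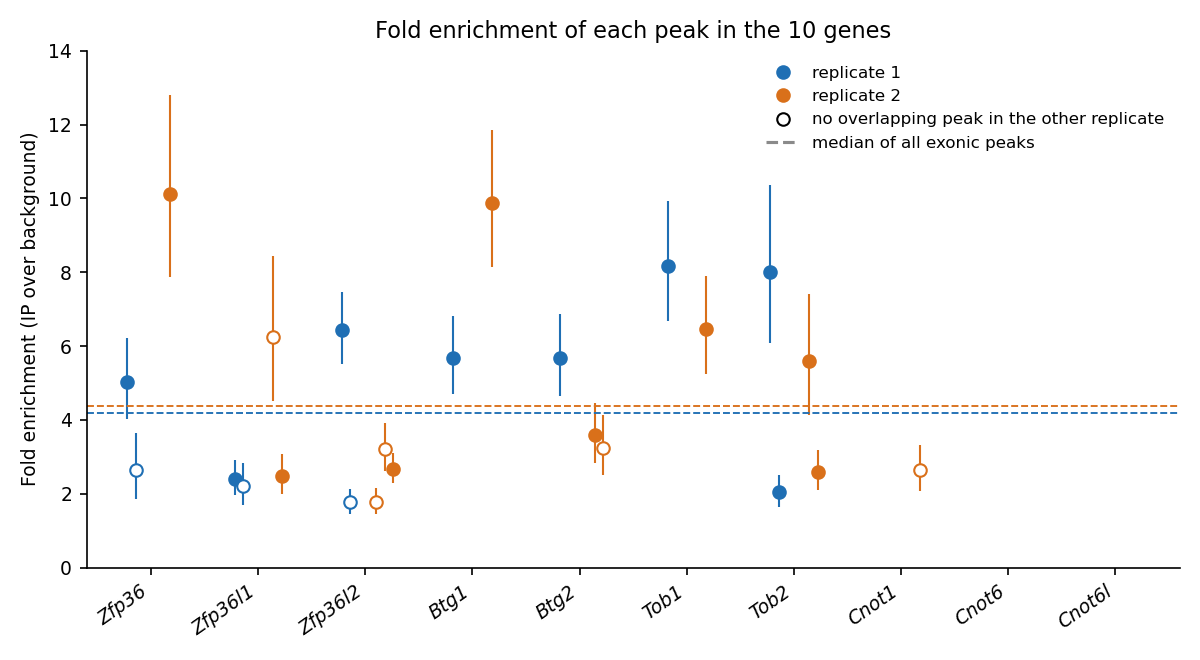
Fold enrichment of each peak in the 10 genes (y axis, IP over background), with bars for the exact 95% Poisson interval of the IP reads alone; open circles have no overlapping peak in the other replicate, and dashed lines are the medians of all exonic peaks, 4.18 in replicate 1 (blue) and 4.39 in replicate 2 (orange). The highest values are those of Zfp36 (10.1) and Btg1 (9.87) in replicate 2, and the open circles of Zfp36, Zfp36l2, Btg2 and Cnot1 lie below the medians.

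Of the 24 peaks, 16 (66.7%) overlapped a peak of the other replicate, forming 8 pairs. No interval is given for this share, because the 2 peaks of a pair are not independent. The share was 72.7% in replicate 1 and 61.5% in replicate 2, against 84.2% and 86.8% of all exonic peaks. The 8 unpaired peaks had a median −log10 q of 7.20, against 29.8 for the paired ones. In 5 of the 8 pairs the summits lay within 10 bp, and in the other 3 over 200 bp apart. The strongest summits were over 100 bp apart in 4 of the 7 adaptors, against 23.1% of all genes with a peak in both replicates.

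The IP reads behind the 8 pairs changed little between replicates, and the fold changed more. Control reads are the computed background divided by the value of 1 control read, 0.874 in replicate 1 and 1 in replicate 2. IP reads entered the fold multiplied by 1 in replicate 1 and by 0.952 in replicate 2. Equal reads therefore do not give equal folds in the 2 replicates. The ratio of replicate 2 to replicate 1 ran from 0.75 to 0.991 for IP reads, with overlapping Poisson intervals in all 8 pairs. For the background it ran from 0.30 to 1.96, and for the fold from 0.416 to 2.01, with 4 pairs higher in replicate 2 and 4 lower. Both ranges end at Zfp36 and Zfp36l2, whose summits lay 298 and 414 bp apart, so different bases are compared there. In the 5 pairs with summits within 10 bp, the background ratio ran from 0.455 to 1 and the fold ratio from 0.699 to 1.73. The fold of the strongest peak changed over 2-fold in 3 of the 7 adaptors (Zfp36, Zfp36l1 and Zfp36l2), against 6.74% of genes, and in each of these the compared summits lay at different places. These are counts from 2 libraries and describe those libraries.

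**Figure D4:**
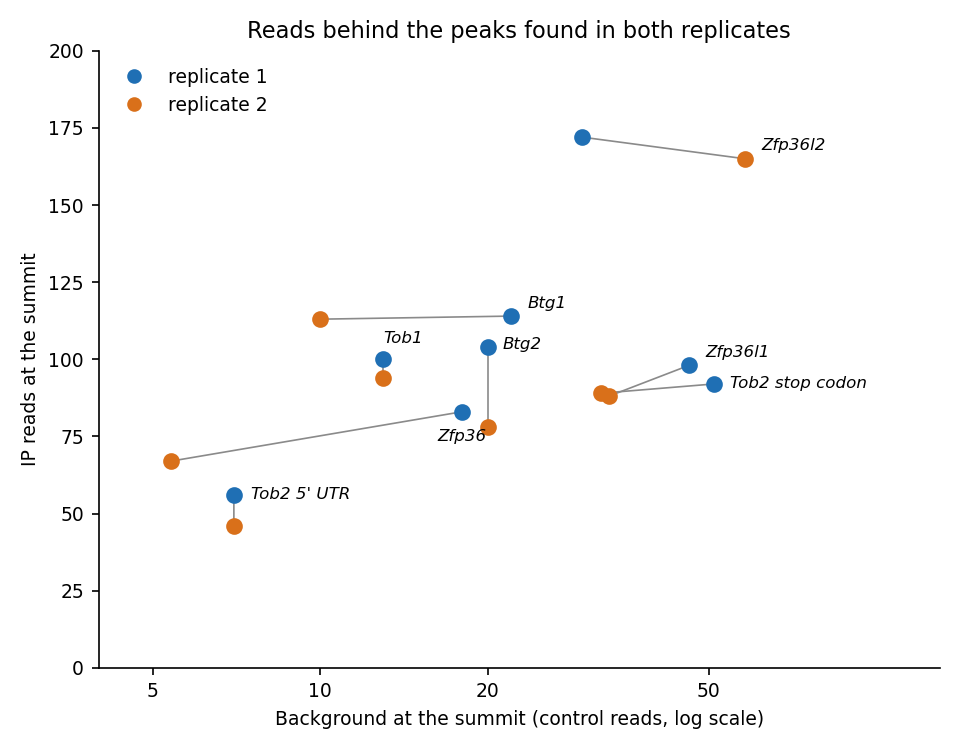
IP reads (y axis) against background in control reads (x axis, log scale) at the summits of the 8 peaks found in both replicates, with a line joining replicate 1 (blue) to replicate 2 (orange). The largest difference in IP reads is that of Btg2 (104 and 78), while the background ranges from 5.4 control reads against 18 in Zfp36 to 58 against 29.6 in Zfp36l2. The summits compared in Zfp36 and Zfp36l2 lay 298 and 414 bp apart.

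Summits on these genes lay mostly in the last exon, 10 of 11 in replicate 1 (90.9%) and 10 of 13 in replicate 2 (76.9%), against 61.6% and 61.1% of all placed summits. In a 2-exon gene the last exon is also the long one, which the comparison does not adjust for. Within 200 nt of the stop codon lay 4 summits in replicate 1 (36.4%) and 3 in replicate 2 (23.1%), against 30.7% and 29.8% over all genes. The start codon held 1 and 4 (9.09% and 30.8%), against 14.7% and 15.4% over all genes, so the order turned between replicates. The remaining coding sequence held 3 in each replicate (27.3% and 23.1%), against 34.0% and 33.8%. By plain region, 54.5% and 53.8% of summits were coding, close to 56.4% and 55.9% over all genes. The strongest summit lay inside the coding sequence in both replicates in Zfp36, Btg1 and Tob1. The same held for Btg2, whose mean fold (4.63) was below the median of 4.74 over genes with a peak in both replicates.

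GGAC, searched on the sense strand only, was found at most 50 nt from the summit for 8 of the 11 peaks of replicate 1 (72.7%) and 8 of the 13 of replicate 2 (61.5%), against 56.1% and 56.0% of all placed summits. Of all windows of 101 nt in the transcripts with a placed summit, 33.1% hold GGAC, and in the members' own transcripts 30.0% do. DRACH, which GGAC also matches unless a G follows it, lay near 11 of 11 and 12 of 13 summits, but 86.5% of all such windows hold it. The sequences shown for Btg1 and Tob1 place the GGAC 5 nt before the summit and 10 to 11 nt after it. In Zfp36l1 the same coding GGAC, 113 nt before the stop codon, served the wide peak of both replicates.

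Several of the 10 mRNAs hold AU-rich motifs themselves. The heptamer TATTTAT, the core that ZFP36 proteins bind, occurred 13 times in the 3′ UTRs of 6 of the 10 genes, with 3 copies each in Zfp36, Zfp36l1 and Zfp36l2, 2 in Cnot6 and 1 each in Btg2 and Tob2. This is 0.646 copies per kb of 3′ UTR against 0.313 over all 20642 3′ UTRs, of which 25.5% hold it (21.5% of 1000-nt windows). None of the 13 copies lay under a peak of its gene in either replicate, and the 2 in Cnot6 could not, since that gene had no peak. The heptamer was rare near summits in general. It lay within 50 nt of 0.471% and 0.535% of all placed summits, against 1.19% of all windows of 101 nt. The share of copies under peaks over all 3′ UTRs was not computed, so the count is not shown to be particular to these genes. In Zfp36 the copies lie 577, 592 and 617 nt past the stop codon, beyond the peaks. The PUMILIO motif TGTANATA occurred 3 times, in Btg1 and Cnot1, 0.149 per kb against 0.238 over all 3′ UTRs.

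The other genes of the pathway were 50 genes listed by function. A peak in both replicates was found in 25, in 1 replicate in 10, and in neither in 15. Over all protein-coding genes the share with a peak in both was 30.9%, and over those of at least 12 exons 38.4%, neither adjusted for expression. By class, a peak in both was held by 5 of 9 other CCR4-NOT genes and 5 of 8 other deadenylases. The same held for 7 of 12 genes of decapping and 5′-to-3′ decay, and 8 of 18 other adaptors and regulators. The 5 CCR4-NOT genes include Tnks1bp1, which is not a CNOT subunit. Btg3, Btg4 and Zfp36l3, the remaining members of the BTG and ZFP36 families on the list, had no peak.

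Other CCR4-NOT genes did hold peaks. Cnot4, a ubiquitin ligase subunit, had 5.63-fold and 14.3-fold peaks in the 2 replicates, and Cnot10, which pairs with CNOT11, had 10.4-fold and 4.76-fold peaks. In both genes and both replicates these summits lay in exons outside the transcript with the longest coding sequence. Cnot10 had no other peak. Tnks1bp1, a protein bound to the complex, had the highest mean of the list (10.6 and 10.4), on 28 and 23 IP reads. Lower values were those of Cnot2 (4.48 and 2.04) and Cnot9 (2.63 and 2.53). The catalytic subunit paralogues Cnot7 and Cnot8 had no peak and a 2.31-fold peak in replicate 1 alone, and Cnot3 and Cnot11 had none. Outside the complex, the highest means were those of Upf1, the helicase of nonsense-mediated decay (8.11 and 12.1), and of Pde12, a mitochondrial poly(A) exonuclease (6.62 and 8.53).

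**Figure D5:**
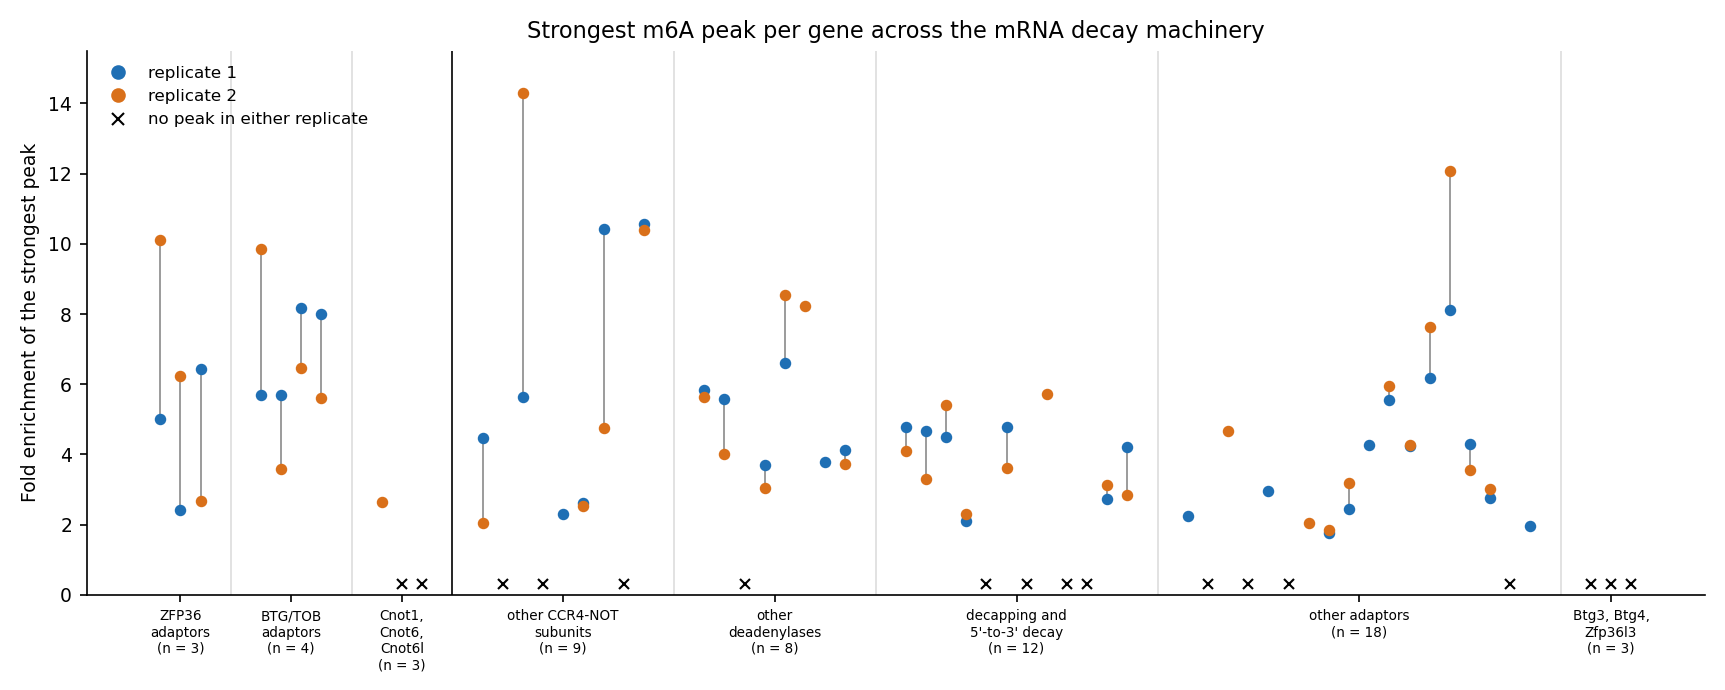
Fold enrichment of the strongest peak (y axis) of each gene, 1 column per gene, for the 10 genes left of the black line and the 50 other decay genes right of it, with replicate 1 in blue, replicate 2 in orange and crosses for genes with no peak. All 7 adaptors show both replicates, as do 25 of the 50 other genes, where the highest are Cnot4, Cnot10, Tnks1bp1 and Upf1. The summits of Cnot4 and Cnot10 lay outside the transcript with the longest coding sequence.

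Peaks on marker genes are listed beside the labelled cell type. A peak needs both expression and methylation, so these counts cannot check the label. Over all protein-coding genes, 30.9% had a peak in both replicates. Of 9 stem and progenitor genes, Gata2, Runx1, Tal1, Lmo2, Cd34 and Spi1 had a peak in both replicates, and Kit, Myb and Ptprc had none. Of the erythroid genes Klf1 and Hbb-bt had one in both and Gata1 had none. Of 4 hepatocyte genes, Apoa1 had a peak in both replicates (4.85-fold and 5.24-fold), Afp in replicate 1 alone on 7 reads, and Alb and Ttr had none. The part of RNA from other liver cells in the peaks of the 10 genes was not tested.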

How the data were processed

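The authors aligned reads with HISAT2 to GRCm38 and called peaks in each IP replicate with MACS2 (version 2.1.1.20160309 in the submitters' processing notes) without its fragment model. The threshold and control library are not given in the sources used here. The deposited fold enrichment is a ratio of IP to local background, the deposited −log10 p-value and −log10 q-value belong to the summit, and the deposited score follows the −log10 q. The deposited start and summit offset gave the summit.

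Summits were assigned to exons of the GENCODE M21 basic set, and positions follow the transcript with the longest coding sequence of each gene. The members and lists were chosen with earlier results of these data known. Named genes were all members and, of 50 decay genes, the 5 highest mean folds, the CNOT subunits and the family members. Peaks sharing 1 bp counted as shared. Library totals are unknown. IP reads at a summit were computed from the fold and p-value together, and 100% of peaks in both replicates matched whole reads within 0.001 in −log10 p. Exact intervals (95%, SciPy 1.17.1) cover counting error only, and PCR copies are not independent molecules. The labels name the replicates without saying from which animals they came, while the study's methods call them biological. No test was run. Alternatives are given in the closing section.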

Additional observations from a re-analysis of the deposited data

How the results depend on the processing

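Of 38 values recomputed under other settings, 26 moved by less than the spread between replicates, or for counts stayed within 1.5 times, and 12 moved further. With a fold of at least 4, members with a peak in both replicates fell from 7 to 4 (Zfp36l1, Zfp36l2 and Btg2 were lost), other decay genes from 25 to 13, and members' peaks per replicate from 12 ± 1.41 (SD, n = 2) to 5.5. Peaks per replicate were 10.5 with −log10 q of at least 5, and 9.5 without summits in exons of several genes. The share of peaks found in the other replicate went from 66.7% to 41.7% when summits had to lie within 100 bp, and to 76.2% with −log10 q of at least 5. The median fold, averaged over replicates, went from 4.13 to 5.80 with the strongest peak of each member. The stop codon share, likewise averaged, went from 29.7% to 50.3% within 400 nt, and the GGAC share from 67.1% to 54.9% within 25 nt, 75.5% within 100 nt and 96.2% for DRACH. With 1 replicate left out, a 2-replicate mean becomes the other replicate's value, which says nothing of stability, and the members and other decay genes with a peak were 8 and 29 without replicate 1 and 7 and 31 without replicate 2. No paired analysis was possible because there is 1 group and no test. The depth of the libraries is unknown, strand is not recorded, and a gene without a peak has no bound on its methylation.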

Other observations

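Peaks in no annotated exon lay upstream of both ZFP36 paralogues in both replicates. Upstream of Zfp36l1, summits stood 2150 and 2147 bp from the gene start at 5.59-fold and 7.28-fold, on 17 IP reads in each replicate. Upstream of Zfp36l2, they stood 1372 and 1374 bp away at 2.97-fold and 3.32-fold, on 51 and 54 reads. Upstream of Cnot6, a peak 1792 bp away was present in replicate 1 alone (7.50-fold, 12 reads). Within 5000 bp of the 10 genes, the remaining peaks outside their exons had summits in exons of the neighbours Thada, Setd6 and 4930513N10Rik.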
